A study of Mus musculus with 8 samples.

Results

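Interferon-stimulated genes are the genes that cells switch on when interferon, a secreted alarm protein of the antiviral response, binds its receptor. They were described in RNA-seq libraries of mouse mammary epithelium at pregnancy day 14.5, as 37 named genes among the 55933 genes of the deposited table. The members were chosen by name, from the well-known targets of interferon, and all 37 have a row in the table and passed the filter on low values described below. The mice were C57BL/6, and each of the 8 libraries came from 1 mouse. The 4 cKO mice carried K14-rtTA, teto-Cre and Bmpr1a fl/fl, so that doxycycline in the drinking water turned on Cre in cells with an active K14 promoter, the myoepithelial cells, and deleted Bmpr1a, a receptor for bone morphogenetic proteins. The 4 control mice were littermates that the sample names call WT, and their genotype is not given further in the sources used here. Glands were minced and digested with collagenase and hyaluronidase, and the cells were not sorted into layers, so every library holds RNA from luminal and myoepithelial cells and from whatever other cells remained.

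Interferons of type I and type III signal through paired receptors and the kinases Jak1 and Tyk2, which phosphorylate transcription factors such as Stat2. Together with Irf9, Stat2 is part of a complex that binds the interferon-stimulated response element in the promoters of its target genes, whereas interferon gamma acts mainly through the gamma-activated site. The targets sense viral RNA, degrade or sequester it, tag proteins with Isg15, block viral entry or budding, and feed back on the pathway through Irf7, Usp18 and Socs1. Macrophages and other immune cells of the gland express many of the same genes, some of them at high levels.

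The response element was searched for in the RefSeq promoters of GRCm38.p6, from 250 bases before to 50 bases after each gene's start, of which 27 of the 37 members had at least 1. Its core, a pair of GAAA blocks with any 2 bases between them, on either strand, lay in the promoters of 15 of these 27 members (55.6%) and of 1079 of all 27025 genes with a promoter (3.99%). The gamma-activated site, TTC and GAA with any 3 bases between them, which reads alike on both strands, lay in 9 of the 27 members (33.3%) and in 9.55% of all genes. The elements of 4 members that recur in the results are printed below on the strand of the gene, 5′ to 3′, with every base covered by a match to the core or its reverse complement in capitals.
Isg15, chr4:156200863-156200908, minus strand: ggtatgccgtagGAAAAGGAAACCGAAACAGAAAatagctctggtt
Ifit1, chr19:34640773-34640825, plus strand: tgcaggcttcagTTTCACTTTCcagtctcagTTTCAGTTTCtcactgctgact
Bst2, chr8:71537575-71537614, minus strand: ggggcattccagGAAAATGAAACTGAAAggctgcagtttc
Igtp, chr11:58199510-58199543, plus strand: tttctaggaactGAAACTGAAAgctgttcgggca
The stretch shown for Isg15 ran from 90 to 45 bases before the start and held 3 overlapping matches. In Ifit1 the 2 matches stood apart and read on the other strand, between 116 and 64 bases before the start. Bst2 had 2 overlapping matches between 142 and 103 bases before its start and Igtp had 1 within the last 46 bases. Neither letter pattern occurred in the windows of Oasl1, Oasl2, Irf7, Irf9, Trim25, Ifi44 and Xaf1, which says only that these letters are not in these windows. No promoter was at hand for Dhx58, Zbp1, Usp18, Oas2, Mx1, Mx2, Parp9, Parp14, Rtp4 and Ifi27. Of the members called lower below, only Isg15 was thus seen to hold the core. A match is a description of the sequence and not a measured binding site.

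The libraries were deep and alike in size. Reads on genes ranged from 16456480 to 18778823 in the control libraries and from 16123108 to 19896988 in the cKO libraries, and no member had fewer than 111 reads in any library. Levels are FPKM, fragments counted per kilobase of a gene's length and corrected for depth, so that genes can be compared by level, and values listed per library follow the replicate numbers 1 to 4. Differences are cKO minus control on the log2(FPKM + 1) scale, which shrinks the change of weakly expressed genes, from limma fitted to the 15143 genes whose FPKM averaged at least 0.5. Bmpr1a itself had 8.74 to 11.7 FPKM in the control libraries and 10.2 to 12.03 FPKM in the cKO libraries (limma, unadjusted p = 0.217), and since this shows no loss of its RNA, the directions below follow the library labels. Values per gene cannot show whether the floxed part was missing from that RNA. The unsorted libraries also hold luminal cells, in which the authors found BMPR1a as well. A loss confined to myoepithelial cells may therefore not be visible in these values. Marker genes of both epithelial layers were present in every library, with summed levels of 4647 to 5986 FPKM for 6 luminal genes and 1488 to 2162 FPKM for 6 myoepithelial genes, the latter mostly from Acta2 and Krt14, and both sums overlapped between the groups. Of the myoepithelial markers 2 had log2 differences below 0 and 4 above, and limma called Krt14 lower (-0.39, unadjusted p = 0.0198) and Oxtr, the least abundant, higher (0.85, unadjusted p = 0.000893). Of the luminal markers 3 were below 0 and 3 above, and limma called Elf5, a luminal transcription factor, and Cd24a higher (0.82 and 0.38, unadjusted p = 0.000687 and 0.00188), with none of the 12 called after adjustment.

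The interferon-stimulated genes leaned to lower levels in the cKO libraries, by small amounts. The log2 difference was below 0 for 32 of the 37 members and above 0 for 5, whereas it was below 0 for 49.8% of all genes tested. The median log2 difference of the members was -0.20, against 0.0007 for all genes, and single members ranged from -0.47 (Oasl1) to 0.12 (Ifit2). At an unadjusted p under 0.05, the threshold of the study, limma called 6 members lower (Isg15, Oasl1, Dhx58, Irf7, Oasl2 and Zbp1) and none higher, against 7.53% of all genes called lower, 8.85% called higher and 16.4% called in either direction. After Benjamini-Hochberg adjustment over all genes tested, limma called 1 member, Isg15, against 0.304% of all genes called lower and 0.892% called in either direction. The groups did not overlap for 3 members, Isg15, Oasl1 and Dhx58, all lower in the cKO libraries, and 4.6% of all genes were lower without overlap. For 21 members the difference was smaller than the spread between the libraries of a group. These calls moved with single libraries. Without cKO replicate 3, 24 of the 37 members were lower, the median was -0.11, and limma called 5 members lower and 1, Ifit2, higher. Without control replicate 3, limma called 15 members lower at an unadjusted p under 0.05, among them Bst2, Rtp4 and Trim25. The shares of all genes given above belong to the fit with all libraries, and none is given for fits with a library left out.

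**Figure D1:**
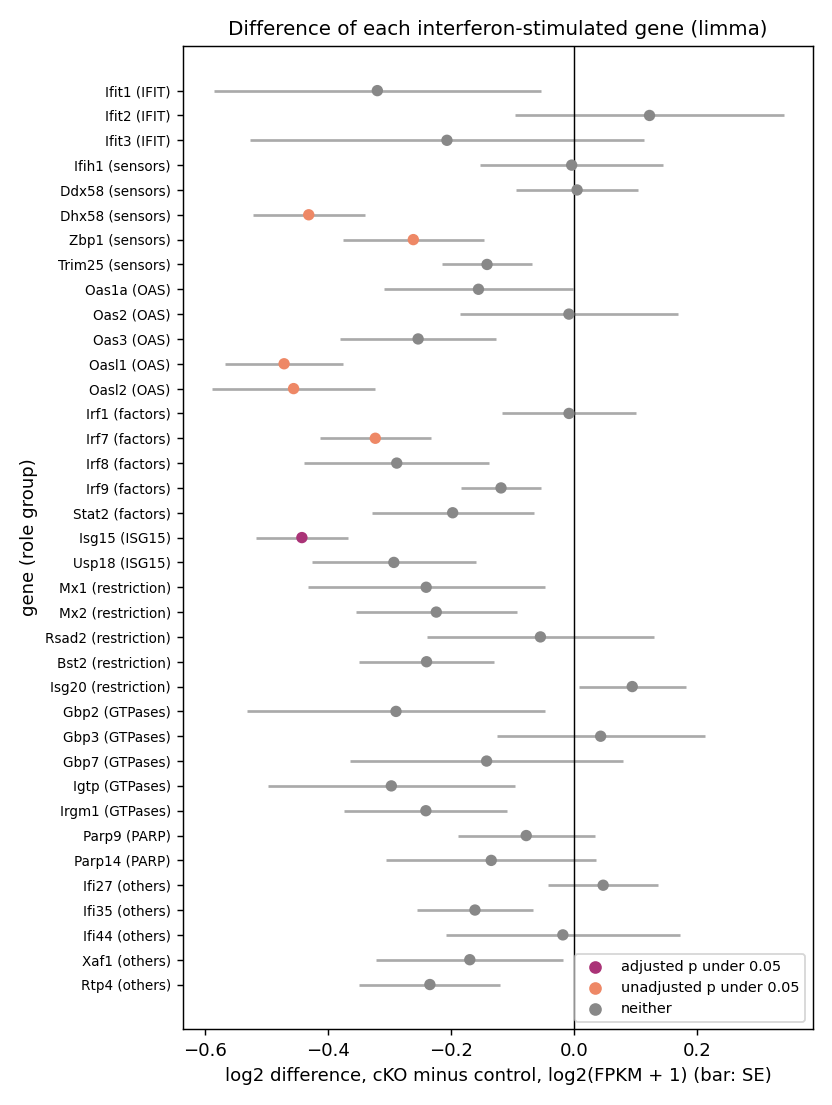
Log2 difference of each of the 37 interferon-stimulated genes, cKO minus control on the log2(FPKM + 1) scale, with its standard error as a bar, ordered by role group and coloured by whether limma called it after adjustment, before adjustment only, or neither. Isg15 is the 1 member called after adjustment and 32 of the 37 points lie below 0.

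Marker genes of immune and stromal cells also leaned to lower levels in the cKO libraries. All 10 macrophage markers had log2 differences below 0, and limma called 5 of them lower at an unadjusted p under 0.05, against 7.53% of all genes, among them Adgre1, a macrophage surface receptor, with a log2 difference of -0.41 (unadjusted p = 0.0109), and none after adjustment. Their summed level ran from 968 to 1135 FPKM in the control libraries and from 861 to 1058 FPKM in the cKO libraries, with overlap, and was lowest in cKO replicate 3. Cd14 made up most of that sum and had a log2 difference of -0.0046, and the other 9 markers summed to 410.9, 300.9, 316 and 337 FPKM in the control libraries and 305, 237, 183 and 269.9 FPKM in the cKO libraries, where only cKO replicate 1 reached the control range. All 10 markers were lowest among the cKO libraries in cKO replicate 3, and without that library limma called 4 lower. B lymphocyte markers summed to 2.63 to 26.9 FPKM in the control and 1.36 to 2.25 FPKM in the cKO libraries, and T and NK lymphocyte markers to 4.07 to 15.9 and 2.49 to 4.71 FPKM. Endothelial markers summed to 66.8 to 77.0 and 47.9 to 74.7 FPKM, and plasmacytoid dendritic cell markers to 3.81 to 4.46 and 2.79 to 4.12 FPKM. The latter sum came mostly from Tcf4, at a mean of 2.94 FPKM over all libraries, against 0.66 FPKM for Siglech. Tcf4 was not called (limma, unadjusted p = 0.363). Fibroblast markers summed to 441 to 920 and 299 to 713 FPKM, none of the 6 called by limma at an unadjusted p under 0.05, and red cell genes to 21.9 to 29.3 and 13.7 to 26.9 FPKM, and adipocyte markers leaned the other way, with 0.535 to 1.10 and 1.80 to 4.83 FPKM. At an unadjusted p under 0.05, limma called lower 3 of 3 tested B lymphocyte markers, 2 of 6 T and NK lymphocyte, 2 of 5 endothelial, 2 of 4 red cell and 1 of 2 plasmacytoid dendritic cell markers, and called higher both tested adipocyte markers. Of these only Cidec, an adipocyte lipid droplet protein, passed after adjustment, higher in the cKO libraries (limma, Benjamini-Hochberg adjusted p = 0.0378). In no list was any marker at 0 in all 8 libraries. The part of these cells in the members' differences was not tested, and in bulk RNA fewer cells of a type and less RNA per cell cannot be told apart.

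Isg15, a ubiquitin-like protein that is secreted and also joined to other proteins, had the strongest test result of the members and was the second in level. Its gene lies at chr4:156199455-156200796 (GRCm38). It had 156, 154, 146 and 176 FPKM in the control libraries and 118, 111, 112 and 121 FPKM in the cKO libraries. Every cKO library lay below every control library, with means of 158 ± 13.1 (SD, n = 4) and 116 ± 4.69 FPKM (SD, n = 4). The log2 difference was -0.44 with a standard error of 0.075 (limma, Benjamini-Hochberg adjusted p = 0.0381). Replicates 1 and 2 alone gave -0.43 and replicates 3 and 4 alone -0.45. Its adjusted p by limma rose to between 0.0691 and 0.104 when any single library was left out and to 0.089 without the filter on low values. Usp18, the protease that removes Isg15 from proteins and damps receptor signalling, had means of 14.8 ± 2.495 and 11.9 ± 1.65 FPKM in control and cKO (SD, n = 4 each). These groups overlapped, since control replicate 3 lay below cKO replicates 2 and 4, and limma gave a log2 difference of -0.29 with an unadjusted p of 0.0561.

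Of the 5 oligoadenylate synthetases and their relatives, limma called 2 at an unadjusted p under 0.05, both lower, against 7.53% of all genes called lower. The synthetases make short oligoadenylates when they bind double-stranded RNA, which activates RNase L, whereas Oasl1 lacks this activity and restrains the translation of Irf7. Oasl1, at chr5:114923240-114937915, had 73.6, 66.2, 66.5 and 71.6 FPKM in the control libraries and 51.2, 56.5, 41.3 and 51.3 FPKM in the cKO libraries. The groups did not overlap, and cKO replicate 3 was the lowest. Its log2 difference of -0.47 (standard error 0.096) was the largest of the 37 with all libraries, with an adjusted p of 0.0639 by limma and Benjamini-Hochberg, and it was -0.38 without cKO replicate 3. Oasl2, at chr5:114896936-114912234, had 21.7, 24.2, 16.6 and 20.7 FPKM in the control libraries and 15.4, 17.8, 12.3 and 14.1 FPKM in the cKO libraries. Here control replicate 3, at 16.6 FPKM, lay below cKO replicate 2, at 17.8 FPKM, and all other control libraries lay above all cKO libraries. The log2 difference was -0.46 with a limma p of 0.00741 before and 0.142 after adjustment. Oas1a, Oas2 and Oas3 stayed at lower levels, with group means of 11.6 and 10.2 FPKM for Oas1a, 3.14 and 3.10 FPKM for Oas2, and 1.45 and 1.03 FPKM for Oas3, in control and cKO. None of these passed the limma test, with unadjusted p of 0.337, 0.962 and 0.0768, and Oas1a has close copies, Oas1b, Oas1c and Oas1g, that could share its reads.

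**Figure D2:**
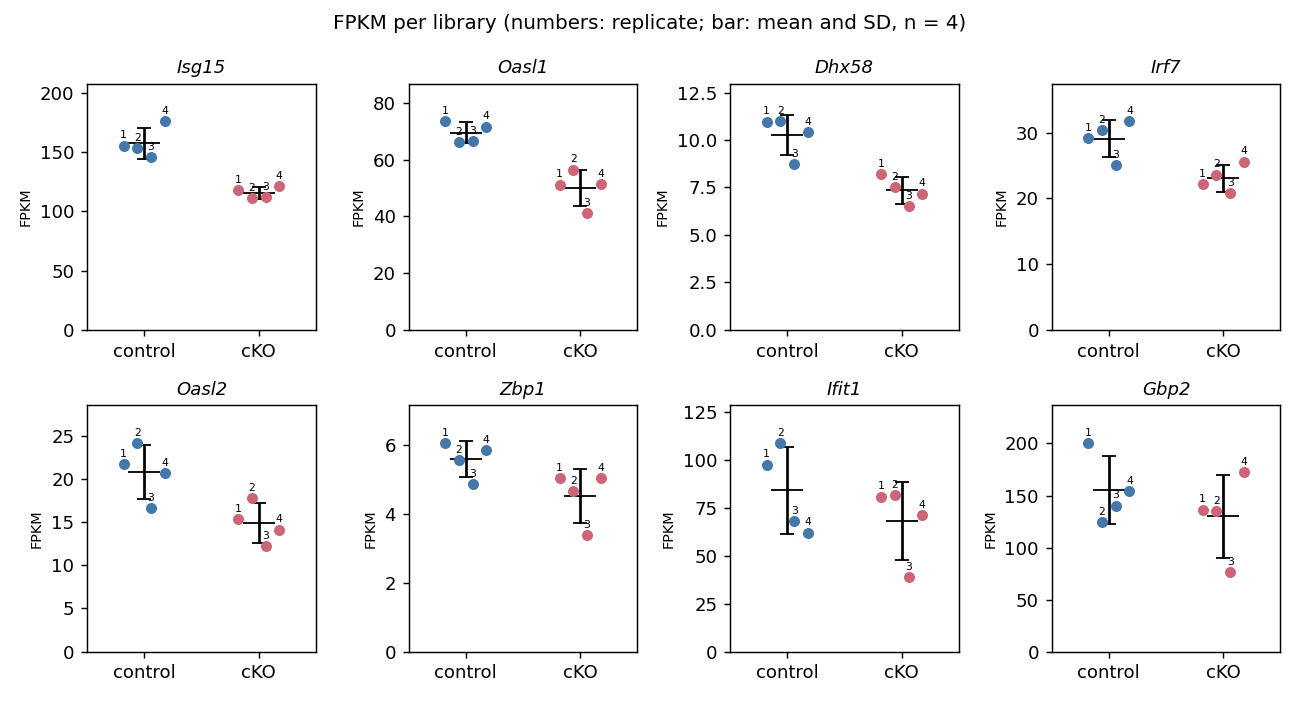
FPKM of 8 interferon-stimulated genes in each library, 4 control and 4 cKO, with the replicate number beside each point and a bar for the mean and SD (n = 4). The groups are apart for Isg15, Oasl1 and Dhx58, overlap slightly for Irf7, Oasl2 and Zbp1, and overlap broadly for Ifit1 and Gbp2, where cKO replicate 3 is the lowest point.

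Among the 5 nucleic acid sensors and their ligase, 2 were called lower, against 7.53% of all genes, and the other 3 were not called. Dhx58 encodes LGP2, a helicase that tunes the responses of its relatives to viral RNA, and lies at chr11:100694884-100704271. Its levels were 10.97, 10.99, 8.74 and 10.4 FPKM in the control libraries and 8.20, 7.52, 6.52 and 7.18 FPKM in the cKO libraries, so that the lowest control value exceeded the highest cKO value. The log2 difference was -0.43 with a standard error of 0.091 (limma, unadjusted p = 0.00108, Benjamini-Hochberg adjusted p = 0.0703). An antisense gene, Dhx58os, shares 141 exonic bases with it and had at most 37 reads in a library. Zbp1, a sensor of left-handed nucleic acid that can trigger cell death, was at 6.07, 5.58, 4.87 and 5.86 FPKM in the control libraries and 5.04, 4.66, 3.39 and 5.05 FPKM in the cKO libraries. The groups overlapped at control replicate 3, and the log2 difference of -0.26 passed narrowly (limma, unadjusted p = 0.0486, adjusted p = 0.302), and its unadjusted p was over 0.05, up to 0.113, without control replicate 1, 2 or 4 or without cKO replicate 2 or 3. The main cytoplasmic sensors of viral RNA had nearly equal means. Ddx58, which encodes RIG-I, had means of 16.6 ± 2.31 and 16.6 ± 1.29 FPKM (SD, n = 4 each) and Ifih1, which encodes MDA5, 15.2 ± 2.60 and 15.2 ± 2.64 FPKM (SD, n = 4 each), in control and cKO. Trim25, the ubiquitin ligase that acts with RIG-I, was the fifth member in level, with 78.6, 80.4, 67.1 and 72.2 FPKM in the control libraries and 64.1, 70.8, 68.5 and 66.1 FPKM in the cKO libraries. Control replicate 3 fell among the cKO values, and the log2 difference was -0.14 (limma, unadjusted p = 0.0865).

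Transcription factors of the response made up 5 members, all with log2 differences below 0, against 49.8% of all genes, and limma called 1 of them lower, against 7.53%. Irf7, which is itself induced by interferon and then drives the genes for interferon alpha, lies at chr7:141262706-141266481. It had 29.2, 30.4, 25.1 and 31.7 FPKM in the control libraries and 22.2, 23.6, 20.8 and 25.6 FPKM in the cKO libraries. Only control replicate 3 and cKO replicate 4 overlapped, at 25.1 and 25.6 FPKM. The log2 difference was -0.32 with a standard error of 0.09 (limma, unadjusted p = 0.00606, Benjamini-Hochberg adjusted p = 0.132). Phrf1 on the opposite strand shares 45 exonic bases with Irf7 and had up to 2256 reads in a library, and strand-specific counting is not stated. The parts of the interferon-activated complex that are members did not pass, with log2 differences of -0.20 for Stat2 and -0.12 for Irf9 (limma, unadjusted p = 0.168 and 0.102), and Irf9 shares 123 exonic bases with Rnf31 on the same strand. Irf1, a factor that responds most to interferon gamma, had means of 46.5 ± 2.05 and 46.7 ± 7.55 FPKM (SD, n = 4 each). Irf8, a factor of macrophages, dendritic cells and B lymphocytes, ranged from 3.92 to 5.19 FPKM in the control libraries and from 2.499 to 4.34 FPKM in the cKO libraries and was not called.

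The 3 Ifit genes, whose proteins bind viral RNA and block its translation, showed no call and a wide spread. Ifit1, at chr19:34640871-34650009, had 97.5, 109, 68.1 and 62.0 FPKM in the control libraries and 80.9, 81.5, 38.7 and 71.4 FPKM in the cKO libraries. Control replicates 1 and 2 were the highest, cKO replicate 3 was far below the rest, and the remaining libraries of both groups lay between. The log2 difference was -0.32 with a standard error of 0.27 (limma, unadjusted p = 0.259) and became -0.07 without cKO replicate 3. Ifit2 ranged from 12.1 to 17.7 FPKM in the control and from 9.67 to 20.6 FPKM in the cKO libraries, and Ifit3 from 26.6 to 48.3 and from 14.7 to 42.4 FPKM. In both, cKO replicate 3 was the lowest of the 8 libraries. Without it, limma gave Ifit2 a log2 difference of 0.35 (unadjusted p = 0.0319, Benjamini-Hochberg adjusted p = 0.255). Ifit3 and its near copy Ifit3b could share reads.

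None of the 5 genes that restrict viruses directly was called in the reported fit, which has no block. With the replicate number as a block, Mx2, Mx1 and Bst2 had limma unadjusted p of 0.00486, 0.0163 and 0.0145, and none passed after adjustment. Replicate numbers are not known to pair the mice. Bst2, which encodes tetherin and holds budding virus at the cell surface, was the third member in level and lies at chr8:71534255-71537456. It had 139.8, 117, 112 and 133 FPKM in the control libraries and 105, 93.8, 99.7 and 127 FPKM in the cKO libraries. Of the cKO libraries only replicate 4 reached the control range, and the log2 difference was -0.24 (limma, unadjusted p = 0.0578). Mx1, a dynamin-like GTPase that traps viral nucleoproteins, had 19.2, 20.1, 12.1 and 15.0 FPKM in the control libraries and 14.1, 18.8, 10.9 and 11.9 FPKM in the cKO libraries. Its groups overlapped widely, with a log2 difference of -0.24 (limma, unadjusted p = 0.243). Its relative Mx2 had a log2 difference of -0.22, Rsad2, which encodes viperin, had -0.06, and Isg20, an exonuclease, had 0.09, with limma unadjusted p of 0.12, 0.773 and 0.307.

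Interferon-induced GTPases attack the vacuoles of intracellular pathogens and respond strongly to interferon gamma, and limma called none of the 5 members. Gbp2, at chr3:142620602-142638008, had the highest mean of all 37 members. It had 201, 125, 140.3 and 154 FPKM in the control libraries and 136, 135, 76.1 and 172 FPKM in the cKO libraries. The groups overlapped, with control replicate 1 the highest and cKO replicate 3 the lowest, and the log2 difference of -0.29 (limma, unadjusted p = 0.262) became -0.05 without cKO replicate 3. Igtp, at chr11:58199556-58207591, had 63.0, 46.2, 43.6 and 49.1 FPKM in the control libraries and 39.3, 47.3, 27.1 and 53.3 FPKM in the cKO libraries. Again cKO replicate 3 was the lowest, and the log2 difference was -0.30 (limma, unadjusted p = 0.172) with it and -0.11 without it. Igtp shares 162 exonic bases with Irgm2 on the same strand, so the counts of these genes may not be fully separate. Irgm1, Gbp7 and Gbp3 had log2 differences of -0.24, -0.14 and 0.04, with limma unadjusted p of 0.102, 0.537 and 0.806.

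Of the ADP-ribosyltransferases, Parp14 had 56.2, 58.5, 36.2 and 47.6 FPKM in the control libraries and 49.1, 49.4, 33.9 and 47.1 FPKM in the cKO libraries. Replicate 3 was the lowest library in both groups, and the log2 difference was -0.13 (limma, unadjusted p = 0.449) with cKO replicate 3 and -0.01 without it. Parp9, which forms a complex with the ubiquitin ligase Dtx3l, had a log2 difference of -0.08 (limma, unadjusted p = 0.5) and shares 458 exonic bases with the Dtx3l gene on the opposite strand. Among the remaining 5 members, Rtp4, which encodes an interferon-induced protein known for assisting the surface transport of taste and olfactory receptors, had 66.3, 68.6, 52.9 and 67.1 FPKM in the control libraries and 58.3, 61.9, 47.3 and 48.9 FPKM in the cKO libraries. Control replicate 3 lay below cKO replicates 1 and 2 and the other control libraries lay above every cKO library, with a log2 difference of -0.23 (limma, unadjusted p = 0.0713). Ifi27, a small membrane protein gene and the sixth member in level, had 71.8, 56.6, 67.0 and 69.8 FPKM in the control libraries and 73.5, 62.5, 70.6 and 66.9 FPKM in the cKO libraries. Its groups overlapped and its log2 difference of 0.05 (limma, unadjusted p = 0.611) turned to -0.01 when libraries were scaled to equal sums or to their totals and to -0.03 without control replicate 2. Ifi35, Xaf1 and Ifi44 had log2 differences of -0.16, -0.17 and -0.02, with limma unadjusted p of 0.121, 0.293 and 0.924.

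In level, the members spanned from 1.24 FPKM (Oas3) to 142.5 FPKM (Gbp2) as the mean of all 8 libraries. Their median mean level was 23.1 FPKM, against 4.67 FPKM for all genes tested. After Gbp2 came Isg15 at 137, Bst2 at 115.8, Ifit1 at 76.1, Trim25 at 71.0, Ifi27 at 67.3, Rsad2 at 63.3, Oasl1 at 59.8 and Rtp4 at 58.9 FPKM, and these 9 members were the ones above 50 FPKM. A further 6 members, Dhx58, Ifi44, Zbp1, Irf8, Oas2 and Oas3, were under 10 FPKM. The members called lower at an unadjusted p under 0.05 thus came from high and low levels alike, from Isg15 to Zbp1 at 5.06 FPKM. Of all gene reads, the members together took 0.466% ± 0.0616 in control mice and 0.395% ± 0.0560 in cKO mice (SD, n = 4 each).

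Much of the variation of the members lay between libraries of the same group. The control libraries had a mean log2(FPKM + 1) over the 37 members of 4.78, 4.79, 4.46 and 4.63, and the cKO libraries of 4.56, 4.62, 4.19 and 4.56. Replicate 3 was the lowest in each group, control replicate 3 lay below all cKO libraries but replicate 3, and the difference of the group means was -0.18 against SDs of 0.16 and 0.20 (n = 4 each). In cKO replicate 3, 26 of the 37 members had their lowest value of all 8 libraries, as did 13.8% of all genes, and in control replicate 2, 21 members had their highest value, as did 11.4% of all genes. Control replicate 3 was the lowest control library for 27 members, against 27.3% of all genes. Isg15 was among the exceptions, with its lowest value in cKO replicate 2. The within-group SD of the log2 values had a median of 0.21 over the members, and 0.15 over all genes tested. In that sense cKO replicate 3 stood apart for the members, and macrophage, endothelial and fibroblast markers were also lowest in it, with summed levels of 861, 47.9 and 299 FPKM. Of the cKO libraries it was the lowest for 10 of 10, 5 of 5 and 6 of 6 of these markers. Control replicate 3 was the lowest control library for 3 of the macrophage markers, 1 of the endothelial and 4 of the fibroblast markers, and its macrophage sum without Cd14, 316 FPKM, was the second lowest of the control libraries. The lymphocyte markers went the other way in control replicate 3, where the B lymphocyte sum of 26.9 FPKM and the T and NK lymphocyte sum of 15.9 FPKM were the highest of all 8 libraries. The part of these cells in the low values of replicate 3 was not tested.

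**Figure D3:**
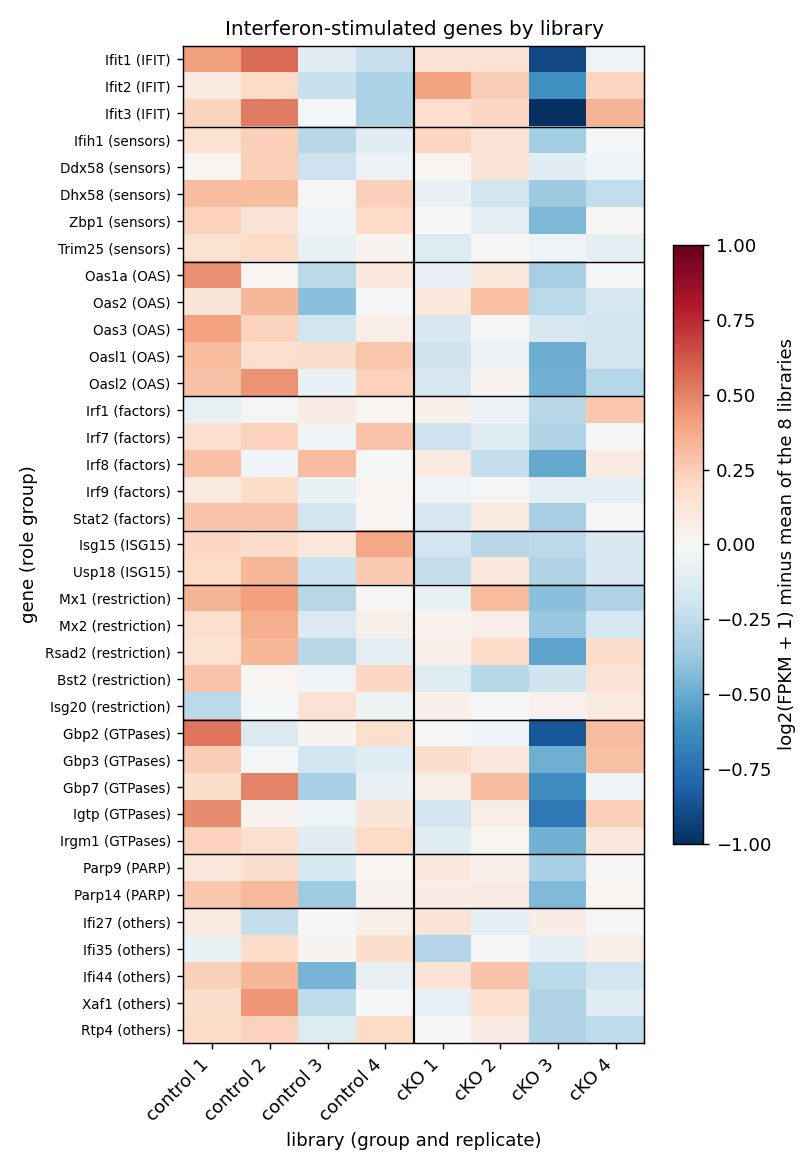
Heat map of the 37 interferon-stimulated genes (rows, by role group) in the 8 libraries (columns), coloured by log2(FPKM + 1) minus the gene's mean over the 8 libraries. Values beyond the colour scale are drawn at its ends. The column of cKO replicate 3 is the darkest blue, with the lowest value of 26 of the 37 members, and control replicate 2 holds the highest value of 21.

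The lean to lower values was present in both sets of replicates that deviate together over all genes, numbers 1 and 2 and numbers 3 and 4. Within replicates 1 and 2 the members' mean log2 level was -0.19 relative to the control, with 32 of 37 members lower, and within replicates 3 and 4 it was -0.16, with 28 lower. A total of 27 members were lower in both sets, and no share of all genes is given for these counts by set. In the second set the lower mean rested on cKO replicate 3, at 4.19. There cKO replicate 4, at 4.56, lay between control replicates 3 and 4, at 4.46 and 4.63. Taken number by number, the cKO library was the lower one for 31, 30, 31 and 24 of the 37 members in replicates 1 to 4, against 48.4 to 49.8% of all genes. The numbers of the labels are not known to pair the mice.

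**Figure D4:**
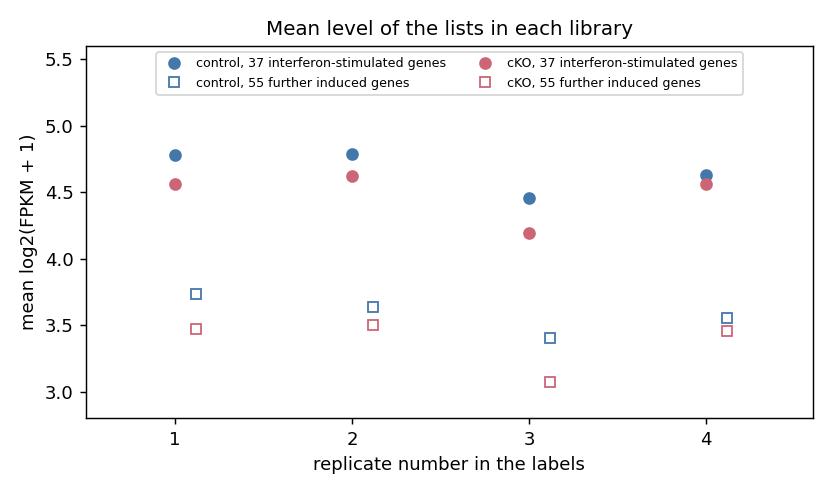
Mean log2(FPKM + 1) in each library, by replicate number, of the 37 interferon-stimulated genes (filled circles) and of 55 further interferon-induced genes (open squares, shifted to the right for clarity), in control (blue) and cKO (red). Within each number the cKO point is lower, and replicate 3 is the lowest in both groups.

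The pathway upstream of these genes held calls in both directions. Of 30 listed pathway genes, 29 were found by name and 23 passed the filter on low values, with 2 called lower and 4 called higher at an unadjusted p under 0.05, against 7.53% and 8.85% of all genes, and none called after adjustment (limma, Benjamini-Hochberg). Of the ligands, Ifnb1, which encodes interferon beta, was the only one of 7 to pass the filter. It had 9.54, 9.24, 12.7 and 10.9 FPKM in the control libraries and 12.9, 12.1, 8.98 and 13.4 FPKM in the cKO libraries, from 107 to 187 reads per library. The groups overlapped and the log2 difference was 0.14 (limma, unadjusted p = 0.324). Ifna4, Ifne, Ifnk, Ifng, Ifnl2 and Ifnl3 had at most 10 reads in any library, so that no difference in them could be seen at this depth.

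The receptors for type I interferon were not called. Ifnar1 had 14.1, 14.6, 12.7 and 11.7 FPKM in the control libraries and 12.9, 13.6, 12.03 and 12.1 FPKM in the cKO libraries, and Ifnar2 had means of 15.1 and 14.7 FPKM, with limma unadjusted p of 0.46 and 0.635. Both chains of the type III receptor were higher in the cKO libraries without overlap, as were 6.1% of all genes. Ifnlr1, the chain specific to interferon lambda, had 9.82, 10.8, 9.82 and 8.73 FPKM in the control libraries and 11.8, 12.6, 12.5 and 12.5 FPKM in the cKO libraries, with a log2 difference of 0.31 (limma, unadjusted p = 0.00161, adjusted p = 0.0795). Il10rb, which it shares with the receptors of interleukin 10 and related cytokines, had a log2 difference of 0.17 and Ifngr2, a chain of the interferon gamma receptor, 0.15 (limma, unadjusted p = 0.0187 and 0.0485). Of the 6 luminal markers, Elf5 and Cd24a were called higher in the cKO libraries and Krt8, Krt18, Krt19 and Epcam, with log2 differences from -0.18 to 0.06, were not called, and the part of luminal RNA in these receptor values was not tested.

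The receptor-bound kinases Jak1, Jak2 and Tyk2 had log2 differences of -0.10, 0.0015 and 0.12 and none was called. Among the inhibitors, Socs1, a feedback inhibitor of the Jak kinases, had means of 10.9 ± 1.15 FPKM in control and 7.70 ± 1.41 FPKM in cKO (SD, n = 4 each). Every cKO value lay below every control value, with a log2 difference of -0.47 (limma, unadjusted p = 0.00425, adjusted p = 0.116), and replicate 3 was not the lowest library here. Socs3, better known for inhibiting signals of the interleukin 6 family, went the other way without overlap, at 84.7 to 91.4 FPKM in the control and 91.9 to 109 FPKM in the cKO libraries (log2 difference 0.18, limma unadjusted p = 0.0324). Of the genes upstream of interferon, Irf5, a factor that acts downstream of Toll-like receptors and is prominent in macrophages and B lymphocytes, had 10.5, 10.8, 11.01 and 9.46 FPKM in the control libraries and 6.76, 7.89, 8.54 and 7.75 FPKM in the cKO libraries. These groups did not overlap, with a log2 difference of -0.39 (limma, unadjusted p = 0.000843, adjusted p = 0.0624). The other 7 tested genes of this step, Mavs, Tmem173, Tlr3, Tlr7, Tbk1, Ikbke and Irf3, were not called, with log2 differences from -0.17 to 0.21.

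**Figure D5:**
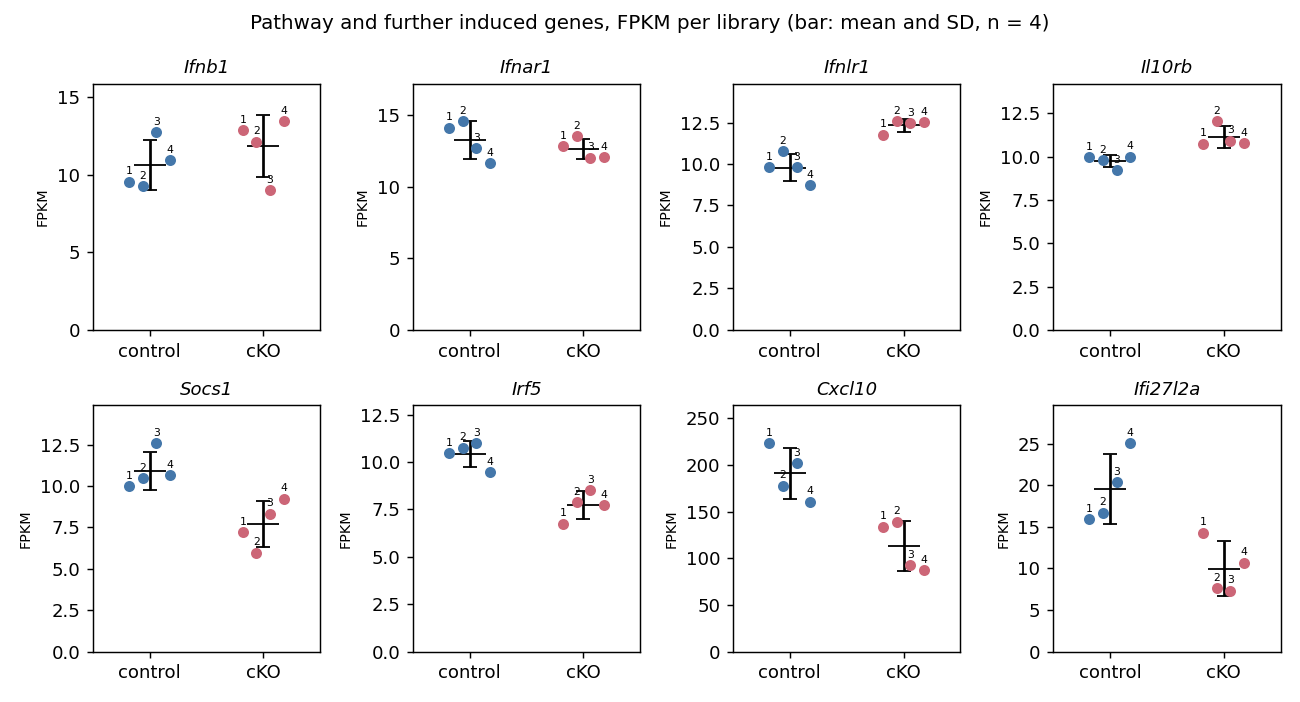
FPKM of 6 pathway genes and of the induced genes Cxcl10 and Ifi27l2a in each library, 4 control and 4 cKO, with the replicate number beside each point and a bar for the mean and SD (n = 4). Ifnb1 and Ifnar1 overlap between the groups, Ifnlr1 and Il10rb are higher in every cKO library, and Socs1, Irf5, Cxcl10 and Ifi27l2a are lower in every cKO library.

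A wider list of 58 further interferon-induced genes leaned the same way. Of the 55 that passed the filter, 51 had log2 differences below 0, against 49.8% of all genes, with a median of -0.19. Of these limma called 9 lower at an unadjusted p under 0.05, against 7.53% of all genes, none higher and none after adjustment. Without cKO replicate 3, 42 of the 55 were lower, limma called 6 lower, and the median was -0.08. Cxcl10, a chemokine that attracts T lymphocytes, had 224, 178, 202 and 161 FPKM in the control libraries and 134, 139, 92.9 and 87.1 FPKM in the cKO libraries. Every cKO value lay below every control value, with a log2 difference of -0.77 (limma, unadjusted p = 0.00176, adjusted p = 0.081). Ifi27l2a, a relative of Ifi27, had 16.0, 16.7, 20.4 and 25.1 FPKM in the control libraries and 14.3, 7.59, 7.34 and 10.7 FPKM in the cKO libraries, again without overlap. Its log2 difference of -0.93 (limma, unadjusted p = 0.0018, adjusted p = 0.0817) was the largest of the list with all libraries, whereas Ifi27 itself differed by 0.05. The other genes called lower were Psmb8 and Tap1, which act in antigen presentation, Pml, a nuclear body protein, Epsti1, Parp10, Apol9b and the RNA editing enzyme Adar, with log2 differences from -0.45 (Epsti1) to -0.19 (Parp10). The most abundant genes of the list were not called. B2m, the light chain of class I antigen presentation, ranged from 1166 to 1670 FPKM in the control and from 818 to 1329 FPKM in the cKO libraries, and Ifitm3, which blocks viral fusion, from 455 to 540 FPKM and from 416.5 to 459 FPKM. In this list 47 of the 55 genes were lowest among the cKO libraries in cKO replicate 3, against 27.8% of all genes.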

How the data were processed

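RNA-seq libraries of whole mammary epithelium from 4 control and 4 cKO mice were used. The authors used FastQC for read quality and Hisat2 with GRCm38 for mapping, and tested groups with DESeq2 at p under 0.05, with no adjustment named, and their processing notes also name mm9, StringTie 1.3.3b and featureCounts 1.5.0-p3. The deposited FPKM table gives gene names and coordinates, and 99.68% of the 55394 gene identifiers found in GENCODE vM21 have the same coordinates there, which places them on GRCm38. FPKM times gene length, divided by the smallest step found in each library, was a whole number of reads for 100% of values above 0 (tolerance 0.01), so reads per gene were recovered. The FPKM already carry the authors' size factors.

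Differences were tested with limma 3.58.1 (R 4.3.3, empirical Bayes with trend) on log2(FPKM + 1) for the 15143 genes averaging at least 0.5 FPKM, with Benjamini-Hochberg adjustment over all of them, since FPKM are not counts. The members, role groups, pathway, further and marker lists were chosen with earlier results of these data known, so their counts are descriptions. Most are set beside the share of all genes, but counts with a library left out or within a set of replicates are not. Of the pathway list, Mb21d1 was not matched by name, and 1 gene of the pathway and further lists is not reported here and is left out of their counts. Values per library are given for members called or without overlap, for the 6 with the highest levels, and for the member of each role group with the largest difference, 15 members in all, and a few others are named by means or ranges. On simulated data for this comparison, with 15131 to 15164 genes tested in each of 5 draws, limma recovered 23.3%, 77.3% and 89.8% of genes changed by 1.5-fold, 2-fold and 3-fold, and 7.81% of its calls were unchanged genes. The simulation gave every gene the same spread beyond sampling noise, not the spread seen between these libraries.

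Libraries of a group differed beyond sampling noise (chi-square of at least 8.18 per degree of freedom). Nothing says which mice shared a litter. Deviations of libraries with the same number correlated over genes at 0.08 to 0.137, and those across replicates 1 and 2 against 3 and 4 at -0.21 to -0.072. Libraries of the same set with another number correlated at 0.087 to 0.178, so libraries with the same number were no closer than others of their set. The replicate numbers were not used as a block in the reported fit. That fit also leaves out the shared structure of the 2 sets, which was used as a block only among the alternatives. Alternatives were leaving out each library, TPM (libraries scaled to equal sums), rescaling by median-of-ratios, the replicate number as a block, no filter or a filter at 1 FPKM, a pseudocount of 0.1, no trend, and limma-voom on recovered reads. After the data were seen, scaling by library totals, a block by set (numbers 1 and 2, numbers 3 and 4) and limma-voom with the replicate block were added. Promoters are RefSeq sequences of GRCm38.p6.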

Additional observations from a re-analysis of the deposited data

Results flagged for a closer look

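In 8 of 230 groups of 4 libraries checked over the members and the other lists, the highest or lowest library stood far from the other 3 by Dixon's criterion, and chance alone would be expected to mark about 11.5. Parp14 was at 33.91 FPKM in cKO replicate 3, with the other cKO libraries between 47.08 and 49.35 FPKM. Rtp4 was at 52.94 FPKM in control replicate 3, with the other control libraries between 66.34 and 68.62 FPKM. These were the members in question. Of the pathway genes, Ifnar2 was at 12.18 FPKM in cKO replicate 3 against 15.39 to 15.66 FPKM, Tlr3 was at 3.277 FPKM in the same library against 5.088 to 5.284 FPKM, and Ifnlr1 was at 11.77 FPKM in cKO replicate 1 against 12.45 to 12.58 FPKM. Il10rb was at 12.05 FPKM in cKO replicate 2 against 10.76 to 10.93 FPKM, and Socs3 was at 91.44 FPKM in control replicate 3 against 84.73 to 85.52 FPKM. Of the further induced genes, Sp100 was at 1.917 FPKM in cKO replicate 3 against 3.049 to 3.243 FPKM. In 4 of the 8 cases the distant library was cKO replicate 3, low each time.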

How the results depend on the processing

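The median log2 difference of the members stayed below 0 under all 19 alternatives, between -0.275 and -0.1093 when single libraries were left out, with the lowest size without cKO replicate 3. The number of members called after adjustment, 1 in the report, was 0 with any single library left out (0 to 0) and 0 without the filter on low values, 2 with limma-voom on recovered reads and 2 with library totals in place of size factors. The number called at an unadjusted p under 0.05, 6 in the report, was 12 with library totals and 5 to 15 when single libraries were left out, with 15 without control replicate 3. With the replicate number as a block, 2 members (Isg15 and Oasl2) were called after adjustment and 14 before it, and blocking by set (numbers 1 and 2, numbers 3 and 4) gave 4 (Isg15, Oasl2, Dhx58 and Oasl1) and 13. Mx2, Mx1 and Bst2, not called in the report, had limma unadjusted p of 0.00486, 0.0163 and 0.0145 with the replicate block and 0.0168, 0.0438 and 0.0611 with the set block, and none passed after adjustment. With limma-voom and the replicate block 5 members were called after adjustment and 19 before it. The numbers of the labels are not known to pair the mice, and same-number deviations correlated at 0.08 to 0.137. Background calls rose less, to 9.55% of all genes called lower with the replicate block and 9.47% with the set block, both by limma on log2(FPKM + 1). For the other alternatives, limma-voom with the replicate block among them, no such share is given. Of the pathway and further genes together, 15 were called before adjustment in the report, 26 with the replicate block, 30 with limma-voom and the block, and 10 to 18 with single libraries left out, with 10 without control replicate 1. After adjustment 0 of them were called in the report and with the replicate block, 3 with the set block (Socs1, Irf5 and Cxcl10, limma adjusted p = 0.0366, 0.0442 and 0.0286), 1 each with limma-voom and with library totals, and 5 with limma-voom and the replicate block. The log2 difference of Ifi27, 0.05 in the report, turned to -0.0142 under TPM, -0.0122 with library totals and ranged from -0.0259 (without control replicate 2) to 0.0883 with single libraries left out. TPM and library totals shifted the median of all genes by -0.05. The cause of these changes was not tested. The 4 mice per group limit the precision of the means. Most changes of 1.5-fold were missed in the simulated data. Since the simulated spread was the same for every gene, this does not show what share would be missed among the members.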
